A study of Homo sapiens with 3 samples.

Results

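The comparison described here sets 1 microarray of RWPE1 cells labelled as overexpressing MYC against 1 microarray of RWPE1 cells carrying the empty vector. Its members are the genes with a probe that names 1 symbol and has a detection value (1 minus the detection p) above 0.99 on at least 1 of these 2 arrays. That left 8148 genes, measured by 9242 probes, of the 16922 named genes and 24526 probes on the array. RWPE1 is an established benign prostate epithelial cell line. The vector group (RWPE1-PMN), the MYC group and a group with constitutively active PI3K (E545K) were each made by retroviral infection. All were grown in K-SFM medium with bovine pituitary extract and EGF and were harvested with no further treatment. Each group is 1 array, and the labels do not say whether a sub-line was a pool of infected cells or 1 clone. Total RNA was extracted with Trizol, cleaned on a column with DNase I, and turned into biotinylated cRNA for Illumina arrays. With 1 array a side there is no test and no replicate error, so every difference below is between 2 arrays and not between conditions.

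MYC is a transcription factor that dimerises with MAX and binds E-box DNA, of which the palindrome CACGTG is the best known form. In many cell types it is known for driving the genes of ribosome assembly, nucleotide synthesis, translation and mitochondrial protein import, and for opposing differentiation genes. Basal prostate epithelial cells, which RWPE1 resembles in culture, carry keratins KRT5 and KRT14 and the adhesion proteins that anchor an epithelium to its matrix.

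The deposited difference between the 2 arrays equals the log2 ratio of the scanner signals plus 0.52 for every probe, the largest departure being 2.1e-06. That constant matches a scaling of each array to its 75th percentile (563.5 for vector, 393.8 for MYC-labelled). Scaled signals below are vector-array intensities, and MYC-labelled and PI3K values brought to that scale through the deposited differences. They are given in the order vector, MYC-labelled, PI3K. The PI3K values rest on the assumption that its column was made the same way, and no detection value was used for it. No median PI3K difference over all genes is given beside those of lists. Over single chromosomes it ran from -0.24 (chromosome 22) to 0.33 (chromosome 10). Both oncogene-labelled arrays are set against the same vector array, so their differences from it are not independent. The dimmest probe past detection had a scaled signal of 233.3 (vector) and 283.7 (MYC-labelled). Where a gene was below detection on 1 array, a fold is given as "at least", computed against that floor.

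The targeted gene went against its label. MYC read 6229, 5229 and 3519.8, a difference of -0.25 on the log2 scale from its only probe, and it was brightest on the vector array. No source used here says whether the retroviral MYC transcript holds the sequence this probe reads. For that reason the array is called MYC-labelled throughout.

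The 2 arrays detected 9700 and 9097 probes, vector first. Of the 8148 genes, 7144 were detected on both arrays, 756 on the vector array only and 248 on the MYC-labelled array only. The median difference over all genes was 0.07 and 56.4% lay above 0. The middle of the distribution was narrow, with the 25th and 75th percentiles at -0.25 and 0.34 and the 5th and 95th at -0.97 and 0.79. At least 2-fold higher on the MYC-labelled array were 188 genes (2.31%), and at least 2-fold lower were 389 (4.77%). Interferon-stimulated genes made up 67 of those 389, leaving 322 others. The text below turns mainly to genes outside that list and outside the ribosome lists. The shares of 2.31% and 4.77% are the background for every 2-fold count below. At the 4-fold mark stood 13 genes higher and 116 lower, 66 of the latter outside the interferon list.

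**Figure D1:**
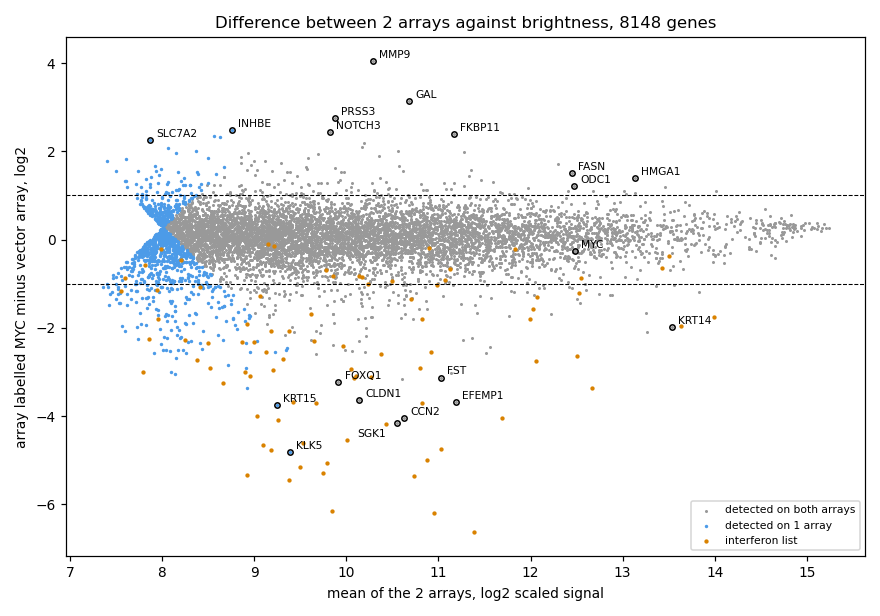
Each point is 1 of 8148 genes, with the mean log2 scaled signal of the 2 arrays across and the log2 difference (MYC-labelled minus vector) up; dashed lines mark 2-fold. The cloud stays near 0 from dim to bright, 188 genes lie at or above the upper line and 389 at or below the lower one, and interferon genes (orange) make up 67 of the lower ones.

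The only error within the design is that between probes of a gene. Over 764 genes with 2 probes detected on both arrays, the SD between probes was 0.20 on the log2 scale, and 35.1% of all genes differed from 0 by less than that. Where the brighter probe was at least 2-fold apart (36 genes), its partner shared the sign in 34 cases and was also 2-fold apart in 18. The sign was thus shared by most such pairs, the size less often. In an extract of whole cells, a change in the share of cells expressing a gene and a change in RNA per cell cannot be told apart. Only 1 probe was measured for 7197 genes. Differences near 0 also move with the scaling: matching the arrays on their medians in place of their 75th percentiles lowers every difference by 0.21, so a list median between 0 and 0.21 turns negative, while its place relative to all genes is unaltered.

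**Figure D2:**
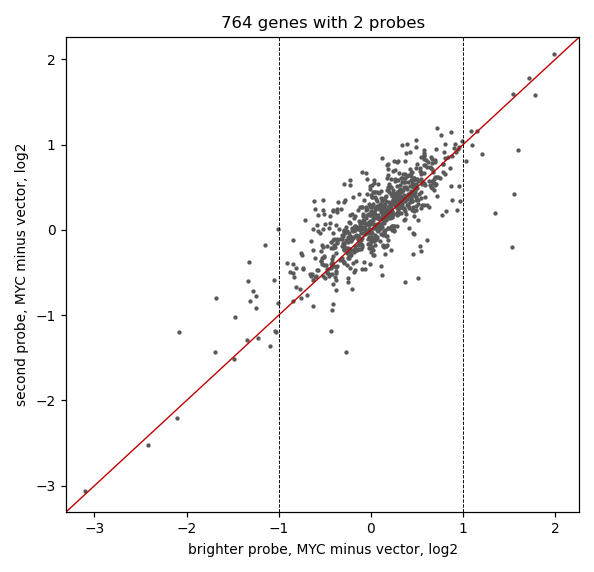
Log2 differences (MYC-labelled minus vector) of the brighter probe across and of the second probe up, for 764 genes with 2 probes detected on both arrays; the red line is equality and the dashed lines mark 2-fold for the brighter probe. The points follow the line, and 34 of the 36 genes outside the dashed lines have the same sign on both probes.

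Because CACGTG is the motif MYC and MAX are known to bind, it was looked for in RefSeq promoters (GRCh38.p14, 250 bases before to 50 after the start; the motif reads the same on both strands). A match was found in 7.43% of the 27305 promoters in the table and in 11.02% of the 6852 promoters of measured genes. The share was 11.2% among genes at least 2-fold higher (16 of 143) and 6.67% among genes at least 2-fold lower (20 of 300). It was 42.9% for nucleolar ribosome biogenesis (12 of 28), 28.0% for mitochondrial import (7 of 25), 20.0% for purine and pyrimidine enzymes (4 of 20) and 21.4% for cholesterol synthesis (3 of 14). It was 16.0% for YAP and SRF targets (4 of 25) and 14.3% for one-carbon enzymes (2 of 14). The other 2 motifs counted on both strands, CATTCC of TEAD factors and TGANTCA of AP-1, were found in 10.5% and 4.41% of measured promoters. CATTCC was in 9.09% of the genes at least 2-fold higher and 15.3% of those lower, in 7 of 28 nucleolar, 6 of 25 YAP and SRF, 4 of 20 purine and pyrimidine, 2 of 14 cholesterol, 3 of 25 mitochondrial import and none of the one-carbon genes. TGANTCA was in 14 of the 143 genes higher and 24 of the 300 lower. These shares are descriptions of letters in a window, not of binding. Stretches upstream of the start are shown for 7 genes with a match whose signals are described in the next paragraphs. All 7 were higher on the MYC-labelled array, and none of the 20 matched genes at least 2-fold lower is shown. The stretches run 5′ to 3′ on the gene's strand, with the CACGTG in capitals.
DHODH (chr16:72008545-72008630, + strand): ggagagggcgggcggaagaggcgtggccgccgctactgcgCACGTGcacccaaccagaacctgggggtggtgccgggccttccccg
ATIC (chr2:215311973-215312058, + strand): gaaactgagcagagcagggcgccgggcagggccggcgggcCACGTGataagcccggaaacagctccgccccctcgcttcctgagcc
MTHFD1L (chr6:150866292-150866377, + strand): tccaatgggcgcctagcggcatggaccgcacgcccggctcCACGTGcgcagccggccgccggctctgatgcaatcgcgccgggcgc
SRM (chr1:11060172-11060257, - strand): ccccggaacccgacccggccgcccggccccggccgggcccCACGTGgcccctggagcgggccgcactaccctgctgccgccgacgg
EIF4B (chr12:53006394-53006455, + strand): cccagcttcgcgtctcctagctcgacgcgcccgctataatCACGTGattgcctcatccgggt
TOMM20 (chr1:235128960-235129045, - strand): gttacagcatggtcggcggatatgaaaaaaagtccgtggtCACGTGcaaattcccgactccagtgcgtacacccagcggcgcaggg
INSIG1 (chr7:155297783-155297868, + strand): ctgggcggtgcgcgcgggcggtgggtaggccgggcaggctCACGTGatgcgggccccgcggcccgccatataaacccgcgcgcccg
The motif's first base lies 22 bases before the start in EIF4B, 46 in ATIC, 55 in INSIG1, 154 in MTHFD1L, 159 in DHODH, 168 in TOMM20 and 199 in SRM.

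Nucleotide synthesis genes were higher on the MYC-labelled array. Of 22 purine and pyrimidine enzymes measured, 21 were above 0, with a median difference of 0.60 against 0.07 for all genes, and 3 were at least 2-fold higher (2 with bounds). CAD, which carries the first steps of pyrimidine synthesis, read 544, 1316 and 1018, a difference of 1.27. DHODH, the next enzyme of that path, read 122, 309.5 and 176 and was below detection on the vector array, hence at least 1.33-fold higher. ATIC, which closes the purine ring, read 3866, 7403 and 6308 (0.94). All 3 were highest on the MYC-labelled array, and CAD and ATIC were intermediate on the PI3K array. The vector and PI3K signals of DHODH both lie under the floor of the vector array, and no order is given to them. PFAS and PAICS, also of purine synthesis, followed the order of CAD and ATIC. PFAS read 889.6, 1685 and 1312 and PAICS 6119.5, 9878 and 9123. NME2, a nucleoside diphosphate kinase, differed by 1.35 on its brightest probe but by 0.20 on its lowest. The exception was TYMP, thymidine phosphorylase, which breaks pyrimidine nucleosides down and is also known as an interferon-responsive gene: it read 14465, 2318 and 2687, 6.24-fold lower.

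One-carbon and polyamine enzymes gave smaller shifts with a few large members. In the one-carbon, serine and glycine list the median was 0.41 over 17 genes, 16 above 0 and 3 at least 2-fold higher, beside a PI3K median of 0.01. MTHFD1L, the mitochondrial formate-producing enzyme, read 1506, 3359 and 1728 (1.16). AHCY, which removes S-adenosylhomocysteine, read 6248, 12968 and 9812 (1.05), and CTH, of cysteine synthesis, 405, 822 and 281 (1.02). MTHFD1L and CTH stood out on the MYC-labelled array, whereas AHCY was high on the PI3K array too. Among 14 polyamine genes the median was 0.20, a value that turns negative when arrays are matched on their medians. ODC1, which makes putrescine and is a textbook MYC target, read 3736, 8612 and 7809 (1.21). SRM, spermidine synthase, read 2829, 4302 and 2709.8 (0.60), and SAT1, which acetylates polyamines for export, read 7386, 4646 and 6109 (-0.67). Other synthetic enzymes were on the lower side: SMS, spermine synthase, differed by -0.16 and AMD1, S-adenosylmethionine decarboxylase, by -0.38, the latter below detection on the MYC-labelled array.

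Lipid synthesis genes were higher on the MYC-labelled array and, by level, on the PI3K array as well. All 15 cholesterol genes measured were above 0, with a median of 0.60 and 4 at least 2-fold higher (3 with bounds). The PI3K median for the same genes was 0.89. DHCR7, which makes the last step to cholesterol, read 532, 1296 and 1272 and SQLE, squalene epoxidase, 2244, 4758 and 5940.2. INSIG1, which holds the sterol sensor in the endoplasmic reticulum, read 172, 411 and 300.2 and was below detection on the vector array (at least 1.76-fold higher). In the fatty acid list of 16 genes the median was 0.38, and the 3 genes past 2-fold were its central enzymes. FASN, fatty acid synthase, read 3333, 9449 and 9639, 2.84-fold higher. SCD, the stearoyl-CoA desaturase, read 11264, 24287 and 26756 (1.11), and ACLY, which supplies cytosolic acetyl-CoA, 936, 1886 and 2740.2 (1.01). On the low side of that list was ACSL4, an acyl-CoA synthetase, at -0.72 on its brightest probe and 0.12 on its other probe.

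Genes of mitochondrial import and translation formed a uniform shift with few large members. Of 28 import and chaperone genes 27 were above 0, the median was 0.42 (PI3K 0.12) and 1 was at least 2-fold higher. That gene was TRAP1, the mitochondrial HSP90, which read 1474, 3575 and 2230.3 (1.28). TOMM20, a receptor of the outer membrane translocase, read 3680.5, 6249 and 4345 (0.76), and AFG3L2, an inner membrane protease, 1860.2, 3625 and 2016 (0.96). TIMM22, the carrier translocase, was the exception at -0.41. Mitochondrial ribosomal proteins had a median of 0.30 over 74 genes with 65 above 0, yet none reached 2-fold; MRPL2 (0.95) and MRPL34 (0.91) came nearest and MRPL52 was lowest at -0.55. By contrast, 63 subunits of the respiratory chain and ATP synthase had a median of 0.13, which is under the 0.21 that separates the scalings, and a PI3K median of 0.15. ATP5MC1, a ring subunit of ATP synthase, was highest at 0.82 on its brightest probe and 0.22 on its other one. Mitochondrial aminoacyl-tRNA synthetases lay between, with a median of 0.25 over 14 genes and no 2-fold member.

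In cytosolic translation, 35 of 40 factors were above 0 with a median of 0.34. EIF4B, which helps the helicase EIF4A unwind messenger RNA, was the 1 factor past 2-fold and read 5659.8, 12126 and 10344 (1.10). EIF3B and EIF3A, scaffold subunits of the complex that holds the small ribosomal subunit, read 5128, 10139 and 6194 and 3002, 5567 and 5020.3. EEF2, which moves the ribosome along, read 18777, 30522 and 24021 (0.70). The nearby lists differed in degree. Nuclear pore and transport genes had a median of 0.26 (35 of 42 above 0), with IPO4, an importin of histones and ribosomal proteins, highest at 0.98. Splicing factors had 0.07 over 46 genes and the constitutive proteasome 0.09 over 30, both near the 0.07 of all genes and both negative under median scaling. In these 2 lists the PI3K medians were 0.31 and 0.33.

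Protein folding genes had similar medians in the cytosol and the endoplasmic reticulum. Cytosolic chaperones had a median of 0.30 over 27 genes, and the subunits of the CCT chaperonin (CCT2 0.72, CCT4 0.64, TCP1 0.61) were on its upper side. The heat-inducible HSPA1A (-0.58), BAG3 (-0.52) and DNAJA1 (-0.49) were on its lower side. In the endoplasmic reticulum the median was 0.33 over 24 genes (PI3K 0.02), with 1 gene far out. FKBP11, a prolyl isomerase of secretory cells, read 1007, 5288 and 1507, 5.25-fold higher. SDF2L1 (0.78), CALR (0.71), DNAJB9 (0.70) and HYOU1 (0.64), all luminal folding factors, were moderately higher, and XBP1, the transcription factor of the unfolded protein response, was at -0.04. Genes of the ATF4 amino acid response had a median of 0.27 over 30 genes, against a PI3K median of -0.17. ATF4 itself was at 0.07 on both of its probes, and DDIT3 at -0.19. INHBE, an inhibin subunit induced by that response, read 184, 1025 and 170.2 and was below detection on the vector array, at least 4.39-fold higher. ASNS, asparagine synthetase, read 8187, 14903 and 8996 (0.86), and ALDH18A1, of proline synthesis, 593, 1095 and 1053 (0.89).

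Glycolysis and glucose transport genes had a median of 0.24 over 23 genes and of 0.47 on the PI3K array. ALDOC, an aldolase, was at least 2-fold higher and read 1265, 2769 and 3453. LDHB (0.62), HK2 (0.61) and PFKM (0.58) were above the list median, while the glucose transporter SLC2A1 was at -0.42. PDK4, the kinase that shuts pyruvate dehydrogenase, read 465, 98.3 and 128 and was below detection on the MYC-labelled array, at least 1.64-fold lower.

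**Figure D3:**
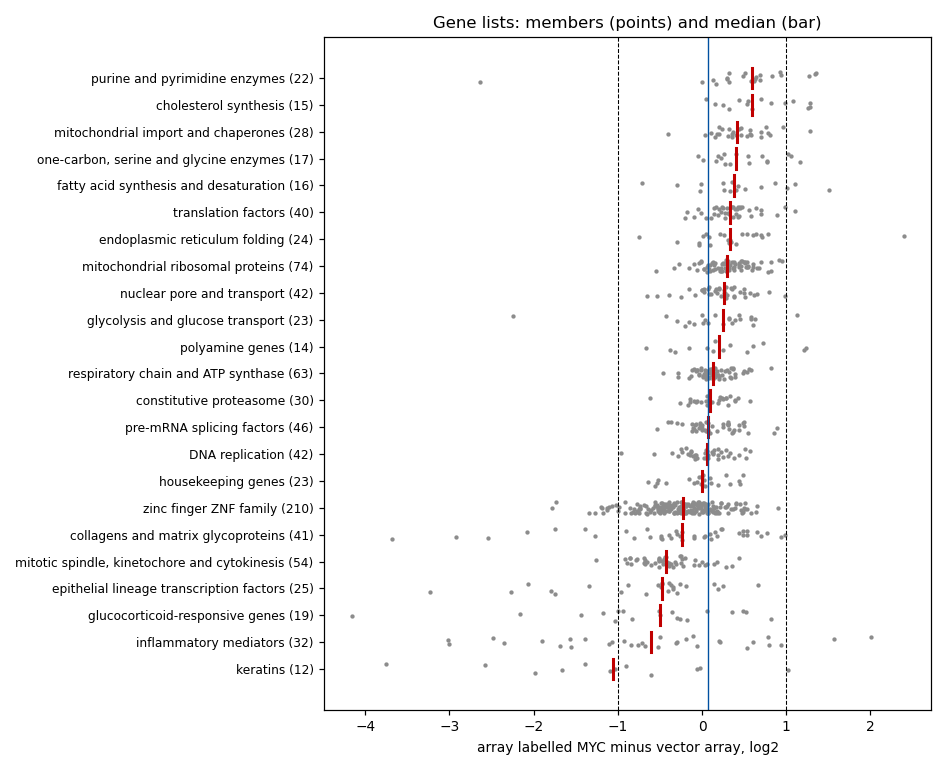
Log2 differences (MYC-labelled minus vector) for the members of 23 gene lists, 1 point a gene, with the number measured in brackets; the red bar is the list median, the blue line the median of all genes (0.07) and the dashed lines mark 2-fold. Nucleotide and cholesterol enzymes have medians of 0.60, mitotic genes -0.43 and keratins -1.06, with wide spread in the lower lists.

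The partners of MYC showed no 2-fold difference. Of 12 network genes measured, 6 were above 0 and the median was 0.12. MAX, the shared partner, was at -0.01 and below detection on 1 array. The antagonists MXD1, MXD4 and MXI1, which compete for MAX, were at 0.66, 0.60 and 0.94, the last below detection on the vector array (at least 1.26-fold higher). MNT was at -0.16 and FBXW7, the ubiquitin ligase receptor for MYC, at -0.27. MYCL, below detection on the vector array, was at least 1.30-fold higher. In the chromatin group of high-mobility proteins HMGA1, a known MYC target, read 5552, 14562 and 14892, with 1.39 on its brightest probe and 0.42 on its other one. Its relative HMGA2 read 318, 519.7 and 991 (0.71), highest on the PI3K array, and HMGB2 was lower at -0.65.

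Cell cycle genes did not move as 1 group. DNA replication genes had a median of 0.06 over 42 genes, close to that of all genes and negative under median scaling. In them CDC7, the kinase that fires origins, was highest at 0.57 and TK1, thymidine kinase, lowest with 1709, 880.4 and 2233 (-0.96). Mitotic genes lay on the other side, with 47 of 54 below 0 and a median of -0.43. On the PI3K array the same genes had a median of 0.42, above the vector array. KIF20A, a kinesin of cytokinesis, was the 1 mitotic gene past 2-fold and read 1132, 472 and 1471 (-1.26). CDC20, which activates the anaphase-promoting complex, read 7085, 3768 and 7569 (-0.91). ASPM, a spindle pole protein, read 3001, 1671 and 5839 (-0.84), and TOP2A 4523, 2624 and 5243 (-0.79). For these 4 genes the MYC-labelled array was lowest and the PI3K array highest. GTSE1 (0.44) and MAD2L1 (0.36) were exceptions above 0. The G1 list had a median of 0.04 over 22 genes with 2 past 2-fold. CCNE1, the cyclin of the G1 to S step, read 251, 669.8 and 475 (1.42), and E2F5 397, 944 and 483 (1.25). CCND3 (-0.86) and CDKN2B (-0.59), an inhibitor of CDK4 and CDK6, were lower, and CCND2 higher (0.52). Histone genes had a median of -0.17 over the 20 of 75 that were detected. H2AZ1 (0.35) and H2BC11 (0.24) were highest. H2AC6 (-0.94), CENPA (-0.85, other probe -0.40) and H1-2 (-0.83) were lowest.

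Among genes detected on both arrays the largest single difference upward was MMP9, the gelatinase that cuts basement membrane collagen. It read 306, 5081 and 996, 16.6-fold higher. GAL, the neuropeptide galanin, read 554, 4849 and 1433 (8.75-fold), and PRSS3, the inhibitor-resistant mesotrypsin, 362, 2453 and 540.2 (6.78-fold). NOTCH3, a NOTCH receptor, read 389.6, 2101 and 190.2 (5.39-fold) and was lower on the PI3K array than on the vector array. In the other 3 genes the PI3K value lay between. NT5DC2 read 547, 2499 and 1186, APCDD1L 554, 2387 and 1419.8 and IL27RA, a subunit of the interleukin 27 receptor, 755, 3023 and 1762. MED24, a Mediator subunit, read 1245, 4941 and 3151 and had 2 probes at 1.99 and 2.06, whereas the 20 Mediator genes had a median of -0.03. The rest of the 15 highest were TTC39C (1.96), the aminopeptidase ANPEP (1.93), the centromere protein CENPV (1.88), HSPA12A of the HSP70 family (1.87), the cytochrome P450 CYP1B1 (1.85) and the ETS factor ETV4 (1.78). ETV4 had a second probe at 1.59. All 15 were higher on the MYC-labelled array than on either of the other arrays.

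Of the genes detected only on the MYC-labelled array, INHBE had the highest bound. TNFRSF8, the receptor CD30, read 176, 886 and 366 (at least 3.80-fold higher), SUN3, of the SUN-domain nuclear envelope family, 167, 854 and 357 (at least 3.66-fold) and SCG5, a chaperone of prohormone convertase, 231, 721 and 654 (at least 3.09-fold). SPRR2D, a cornified envelope protein, had a bound of 2.94-fold, BMP6, a bone morphogenetic protein, 2.84-fold, ADAM8, a membrane metalloprotease, 2.75-fold and ITPKA, an inositol trisphosphate kinase, 2.42-fold. SCG5 was nearly as bright on the PI3K array. The PI3K signals of INHBE and SPRR2D, like their vector signals, lay under the floor of the vector array, no floor being known for the PI3K array.

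Downward the differences were larger. SGK1, a kinase of ion transport induced by glucocorticoids, read 6344, 355 and 1486, 17.9-fold lower. CCN2, connective tissue growth factor, read 6410.5, 391 and 1441 (16.4-fold lower), and EFEMP1, a fibulin of the matrix, 8377, 653 and 3059 (12.8-fold lower). CLDN1, the tight junction claudin, read 3991, 319.5 and 418 (12.5-fold lower), and FOXQ1, a forkhead factor, 2958, 315 and 579.8 (9.38-fold lower). These 5 were lower on both oncogene-labelled arrays, and lowest on the MYC-labelled one. Another pattern was seen for FGFBP1, which frees FGF from matrix: it read 4631, 522 and 7285. FST, the activin antagonist follistatin, read 6169, 708 and 6763, with a second probe at -1.62. For FGFBP1 and FST the PI3K array was above the vector array while the MYC-labelled array was 8.87-fold and 8.72-fold below it. SAA1, serum amyloid A, read 6378, 789.7 and 3418, with the highest of its probes at -1.57. The remaining lowest genes were C1orf116 (-2.60), KRT19 (-2.58), the collagen prolyl hydroxylase P3H2 (-2.55), the surface protein TM4SF1 (-2.51), the poly(A) polymerase family member TENT5B (-2.51), the WNT antagonist family member DKK3 (-2.42) and nicotinamide N-methyltransferase NNMT (-2.38).

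**Figure D4:**
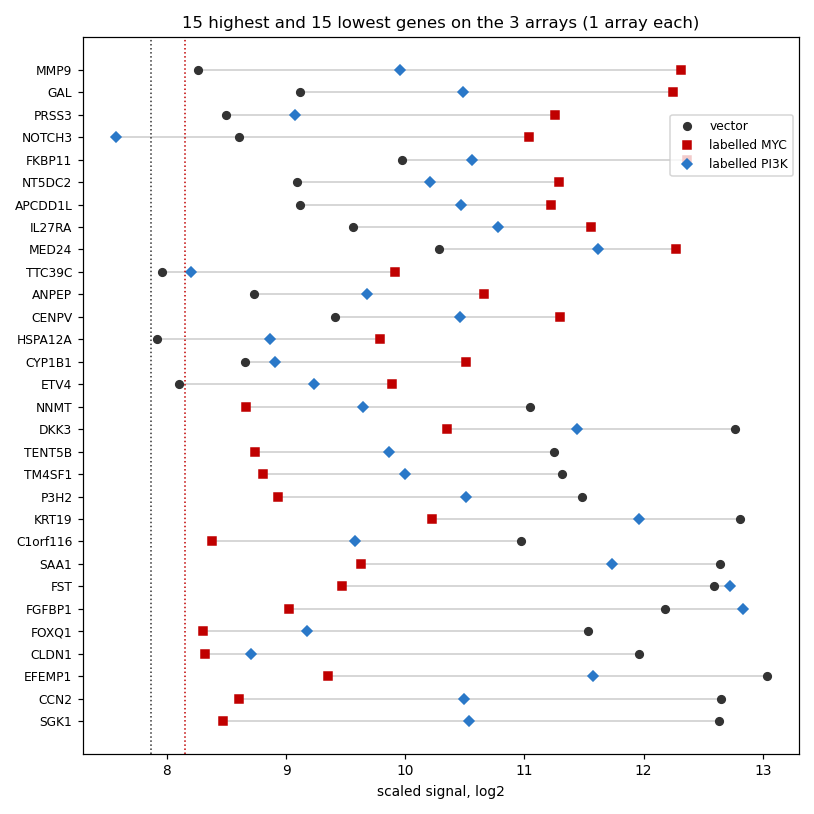
Log2 scaled signals of the 15 highest and 15 lowest genes outside the interferon and ribosome lists on the vector (circles), MYC-labelled (squares) and PI3K (diamonds) arrays; dotted lines are the lowest detected scaled signals, 233.3 for vector and 283.7 for MYC-labelled. The MYC-labelled array is highest of the 3 in the upper 15 genes and lowest in the lower 15, and for FST and FGFBP1 the PI3K value lies above the vector value.

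Genes detected on the vector array but not on the MYC-labelled array included KLK5, a kallikrein of the skin barrier, with 3543, 126 and 264 and a bound of 12.5-fold lower. Its probes disagreed in size, from -5.53 to -0.75. KRT15, a basal keratin, read 2231, 166 and 469.9 (at least 7.86-fold lower). PLAC8 read 1556, 152 and 805 (at least 5.49-fold lower) and TFCP2L1, a transcription factor of ductal epithelia, 1549, 274 and 408 (at least 5.46-fold lower). The other 4 highest bounds were HCP5 (5.43-fold), ZSCAN18 (5.10-fold), the collagen COL8A1 (4.67-fold) and AUTS2 (4.22-fold). The 2 probes of COL8A1 gave -2.92 and -2.72.

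Keratins, the intermediate filaments of epithelia, were lower on the MYC-labelled array. Of 12 measured, 11 were below 0, the median was -1.06, and 7 were at least 2-fold lower, 5 with bounds. The background for the same direction is 4.77% of all genes. KRT14 read 23640.4, 5975 and 13094 (-1.98) and its partner KRT5 17322, 5473 and 11735 (-1.66), both basal keratins. KRT19 read 7165, 1199.7 and 3979 (-2.58) and KRT16, induced in activated epithelium, 8180, 3842 and 6404 (-1.09). For these genes the PI3K array lay between the other 2. KRT8 (-0.90) and KRT7 (-0.60), of simple epithelium, were lower by less than 2-fold, while KRT10 (-0.05) and KRT6C (-0.03) differed by less than the probe SD. KRT18, the partner of KRT8, went the other way from below detection on the vector array, at least 1.29-fold higher.

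Other basal markers were mixed. The basal list of 16 genes had a median of -0.20 and 6 members at least 2-fold lower, against 4.77% of all genes. Besides the keratins these were JAG2, a NOTCH ligand (-1.47), and the caveolins CAV1 (-1.02) and CAV2 (-1.33, with -0.38 on its other probe). LAMB3, a laminin chain of the hemidesmosome, read 3651, 5723 and 2593 (0.65) and was higher, and the integrin ITGA6 (0.25), SFN (0.08) and EGFR (0.23) were near the middle. In the squamous list SPRR2D and CSTA (1.09), both of the cornified envelope, were higher. In the same list ELF3, an epithelial ETS factor, was below detection on the MYC-labelled array (at least 2.51-fold lower), and CALML3 read 2181, 636 and 678 (-1.78). The luminal prostate list had 7 of 23 genes detected and its median was -0.84. SLC45A3, prostein, was below detection on the vector array and at least 1.80-fold higher on the MYC-labelled array. FKBP5, an androgen- and glucocorticoid-responsive immunophilin, read 4733, 2648 and 4272 (-0.84).

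The transcription factors of epithelial lineage had 21 of 25 members below 0 and a median of -0.47. At least 2-fold lower were 6, and none was 2-fold higher, against 4.77% and 2.31% of all genes. TFAP2C was below detection on the MYC-labelled array (at least 3.14-fold lower), as was FOXA1, the pioneer factor of the androgen receptor (at least 2.87-fold lower). IRX4 read 2251, 671 and 1002 (-1.75) and PITX1 9290.5, 3657 and 3194 (-1.35). TFAP2C kept a PI3K signal of 733, whereas PITX1 was lower on both arrays. RUNX2 was below detection on the vector array and read 349.6 on the MYC-labelled array. KLF4 was at 0.25, SOX4 at 0.14 and ID3 at 0.18, the latter 2 negative under median scaling.

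Cell junction genes were split. In the claudin and tight junction list 3 of 15 were at least 2-fold lower, against 4.77% of all genes. Only CLDN1 remained so with bounds. CLDN12 (0.50), TJP1 (0.40) and CLDN7 (0.33) were on the upper side. The desmosome and adherens list had a median of -0.22 over 20 genes. The envelope linker PPL read 1417, 643 and 1314 (-1.14), the desmosomal cadherin DSG3 676, 318 and 275 (-1.09), and CDH11 was at least 1.88-fold lower. E-cadherin CDH1 read 3534, 2595 and 2872 (-0.45) and N-cadherin CDH2 240.5, 425 and 232 (0.82). VIM, vimentin, read 12491, 19080 and 13327 (0.61), and EPCAM, an epithelial adhesion protein, 518, 1061 and 896 (1.04). In the transition list of 10 genes 7 were above 0, against 56.4% of all genes. Its highest member, and its 1 gene past 2-fold, was the epithelial EPCAM. There SNAI2 (0.13) and TWIST1 (0.01) were near 0, and the 3 members below 0 were CDH1, OVOL2 (-0.75) and GRHL2 (-0.34, below detection on the MYC-labelled array), all epithelial. Integrins and laminins had a median of -0.09 over 19 genes, with ITGA5, the fibronectin receptor, at 0.73, ITGB1 at -0.47 and ITGA3 at -0.45.

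Collagens and matrix glycoproteins had a wide range, from EFEMP1 to COL16A1 (0.99), and a median of -0.24 over 41 genes. At least 2-fold lower were 7 (6 with bounds), and none was 2-fold higher, against 4.77% and 2.31% of all genes. FBLN1, fibulin-1, read 1424, 336 and 605 (-2.08) on its brightest probe, with -0.49 on another. COL5A1 read 2272, 679 and 764 (-1.74), and PLOD2, a collagen lysyl hydroxylase, 2488, 1033 and 2161 (-1.27), its second probe at -0.57. LOX, which crosslinks collagen, was at least 1.58-fold lower. THBS2 (0.94), COL7A1 of anchoring fibrils (0.70) and TNC (0.54) were higher.

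Proteases and their inhibitors ran in both directions. Of the 11 matrix metalloproteinase, ADAM and TIMP genes detected, 4 were at least 2-fold higher and 1 was 2-fold lower, against backgrounds of 2.31% and 4.77%. ADAM19 read 392, 901 and 348, 2.30-fold higher. TIMP1, a soluble inhibitor of these enzymes, read 7497, 17025 and 13664 (1.18), and TIMP2 2859, 893 and 2350.2 (-1.68), its second probe at -0.69. The 2 inhibitors thus differed in opposite directions on the MYC-labelled array. In the trypsin-like and plasminogen list of 21 genes, 3 passed 2-fold upward (1 with bounds) and 5 downward, against 2.31% and 4.77% of all genes. PLAT, tissue plasminogen activator, was at least 1.57-fold higher and PRSS2 at least 1.66-fold higher. TFPI, the tissue factor pathway inhibitor, was at least 2.24-fold lower, cathepsin CTSV read 3237, 1094 and 2482 (-1.56), and HTRA1 4369.8, 1802 and 2023 (-1.28). KLK10 was at least 2.51-fold lower, PI3, elafin, read 998, 359 and 1701 (-1.47) and SLPI 2867, 1634 and 1489 (-0.81). SERPINA3 was at least 2.64-fold lower, while SERPINB5, maspin, read 5064, 7665 and 4856 (0.60).

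In the NOTCH pathway receptors and ligands each went both ways. Of the receptors NOTCH3 was higher and NOTCH1 read 4385, 2849 and 1351 (-0.62). Of the ligands DLL1 (at least 2.44-fold lower) and JAG2 were lower, while DLL3 (0.61) and JAG1 (0.29) were higher. Among targets HES4 read 6628, 3084 and 2031 (-1.10), HES1 1008, 783 and 418 (-0.37), and HEY1, below detection on the vector array, was at least 1.32-fold higher. NOTCH1, HES4 and HES1 were lower still on the PI3K array. The list median was -0.08 over 18 genes.

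In the WNT list 4 of 12 genes were at least 2-fold lower (3 with bounds), against 4.77% of all genes. Of these 4, 3 are extracellular antagonists or relatives of them. DKK3 read 6989, 1303 and 2780.2 on its brightest probe, with the 2 probes at -2.52 and -2.42. SFRP1 read 6343, 1902 and 1758 (-1.74), and DKK1 was at least 2.04-fold lower. DKK1 was closer to the vector value on the PI3K array, with 431 beside 579. APCDD1L was the 1 gene at least 2-fold higher. In the TGF-beta, activin and BMP list the median was 0.14 over 23 genes, negative under median scaling. INHBE and BMP6 were its 2-fold higher members, and FST and FSTL1 (at least 1.43-fold lower) its lower ones. TGFBR2 read 2068, 1223 and 1632 (-0.76) and BMPR2 576, 296 and 457 (-0.96). FSTL3, another follistatin-like antagonist, was higher (0.61).

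YAP and SRF targets had a median of -0.10 over 32 genes and 4 members at least 2-fold lower, against 4.77% of all genes. These were CCN2, CCN1 (-1.37), CNN3, a calponin (-1.52), and AXL, a receptor kinase (-1.48). AXL read 4495, 1611 and 3919 and CNN3 2106, 737 and 2272, so both were near the vector value on the PI3K array. Cytoskeletal targets TAGLN2 (0.80), ACTA2 (0.80), TPM4 (0.71) and TEAD4, a DNA-binding partner of YAP (0.93), were higher. In the wider cytoskeleton list of 51 genes the median was 0.01, with ACTN4 lowest (-1.03) and TUBB6 (0.69) and FSCN1 (0.57) among the highest.

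Growth factor signalling gave single large members. LRIG1, a brake on EGF receptors, read 803, 291 and 289.6 (-1.46), HBEGF, an EGF receptor ligand, 2379.5, 3884 and 1022 (0.71) and EGFR 3364, 3943 and 3438 (0.23). HBEGF was lower on the PI3K array than on the vector array. FGFR4 was at least 1.85-fold higher and FGFR3 read 885, 492 and 1098 (-0.85). In the ERK and ETS list of 23 genes ETV4 and HMGA1 were past 2-fold, while the feedback phosphatases DUSP6 (0.53) and DUSP1 (-0.50) lay on opposite sides. Of immediate early genes 3 of 24 were at least 2-fold lower: FOS read 3301, 1353 and 2035 (-1.29), ZFP36 2348, 1167 and 1974 (-1.01) and IER5L 1004, 489.7 and 695 (-1.04). JUNB read 1119.8, 1968 and 1454 (0.81) and EGR1 6536, 7768 and 9572 (0.25).

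Genes induced by glucocorticoids had a median of -0.50 over 19 genes, 6 of them at least 2-fold lower against 4.77% of all genes. CEBPD read 9782, 3612 and 4263 (-1.44) and TSC22D3, which encodes GILZ, 6425, 3139 and 2625, its 2 probes at -1.19 and -1.03. ZBTB16, PLZF, was at least 2.14-fold lower, with probes at -2.17 and -1.24. SCNN1A, the sodium channel subunit, read 8728, 4351 and 7187. NDRG1 (0.82) and PER1 (0.49) were higher, and the receptor NR3C1 was at -0.18 on its brightest probe and 0.85 on another. SGK1, CEBPD and TSC22D3 were also lower on the PI3K array.

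Genes activated by FOXO factors had 18 of 21 members below 0. At least 2-fold lower were 7, 5 with bounds, against 4.77% of all genes. The death ligand TNFSF10, a gene that interferon also induces and a member of the interferon list, was at least 8.62-fold lower. BCL6, a repressor, read 1357, 344 and 551 (-1.98), IRS2, an insulin receptor substrate, 2343, 979 and 1029 (-1.26), and FBXO32 was at least 2.90-fold lower, with -0.29 on another probe. TXNIP (0.57) and INSR (0.71) were above 0. In the pathway itself PIK3R1, the regulatory subunit of PI3K, read 2081, 598 and 1101, with -1.80 on its brightest probe and -0.87 on its other one. AKT1 was at 0.02 and MLST8, an mTOR partner, at 0.78. The 18 pathway genes had a median of 0.07, negative under median scaling.

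Inflammatory mediators, other than the interferon list, had 11 of 32 genes at least 2-fold lower (9 with bounds) and 2 at least 2-fold higher, against 4.77% and 2.31% of all genes. CXCL2, a neutrophil chemokine, read 1662, 514 and 717 (-1.69). CCL2 was at least 2.74-fold lower, SAA2 at least 2.89-fold, S100A8 at least 2.71-fold and IL6 at least 2.09-fold lower. S100A9, the partner of S100A8, read 1337, 455.6 and 1485 (-1.55). S100A8 and S100A9 stayed near the vector value on the PI3K array, whereas CCL2, IL6 and CXCL2 were lower on both. LCN2, the iron-binding lipocalin, read 1519, 4517 and 1474 (1.57) and was higher on the MYC-labelled array alone of the 3. NFKB2 (0.78), PTGS2 (0.53) and IL32 (0.60) were moderately higher.

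In the list of death ligands, receptors and caspases 1 of 18 genes, TNFRSF8, was at least 2-fold higher and 4 were 2-fold lower. The backgrounds are 2.31% and 4.77% of all genes. CASP1, the inflammasome caspase, read 1742, 404 and 1414, its 2 probes at -2.20 and -2.11. CFLAR, which blocks caspase 8, read 930.1, 326 and 531 (-1.51) and TNFRSF21 7913, 3766 and 3498 (-1.07). CASP6, an effector caspase, was at -1.05 on its brightest probe and -0.59 on its other one. None of the 21 BCL2 family and related genes reached 2-fold. BCL2L1 read 9230.4, 5135 and 9924 (-0.85), with -0.12 on a second probe, PMAIP1 1017, 567 and 803 (-0.84) and BID 518, 774 and 491 (0.58). Genes activated by p53 had a median of -0.01 over 23 genes. PLK2 was at least 2.25-fold lower, and GDF15 read 5038, 6082 and 1812 (0.27).

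Metallothioneins, which bind zinc and copper, were lower on the MYC-labelled array and varied by member on the PI3K array. MT1X read 21826, 9632 and 18343 (-1.18), MT1E 15079, 7333 and 27239.5 (-1.04) and MT1F 2639.6, 952 and 2373 (-1.47). MT2A read 28255, 22033 and 36059 (-0.36) and MT1G 1056, 709 and 6363 (-0.57). These paralogs are near-identical in sequence, so their probes may share targets. Zinc transporters SLC30A5 (0.88, other probe 0.35) and SLC39A3 (0.80) were higher. In the antioxidant and detoxification list 8 of 41 genes were at least 2-fold lower and 1 was 2-fold higher. The backgrounds are 4.77% and 2.31% of all genes. ALDH3A1, an aldehyde dehydrogenase, read 5701, 1217 and 1191 (-2.23), and the aldo-keto reductase AKR1C3 1808, 486 and 711 (-1.90). AKR1B10 was at least 2.23-fold and UGT1A6 at least 4.08-fold lower, and SOD2 read 10490.2, 4497 and 5423 (-1.22). The peroxiredoxins PRDX1 (0.66), PRDX3 (0.65) and PRDX4 (0.52) and the pentose phosphate enzyme PGD (0.79) were higher. The 1 gene past 2-fold upward was CYP1B1, and GPX3 (0.97) came next. Of the 41, 16 were above 0 and 25 below.

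Solute carriers beyond the mitochondrial ones had 8 of 130 genes at least 2-fold higher and 3 lower (7 and 2 with bounds). The backgrounds are 2.31% and 4.77% of all genes. The list median was 0.15, negative under median scaling. SLCO4A1, an organic anion transporter, read 279, 898 and 1169.8 (1.68). SLC6A15, a neutral amino acid transporter, read 914, 2685 and 1217, with 1.55 on its brightest probe and 0.42 on its other one. SLC7A2, a cationic amino acid transporter, was at least 2.19-fold higher, and SLC2A9, a urate transporter, read 366, 872 and 364 (1.25). On the other side SLC1A3, a glutamate transporter, read 1576, 617 and 466 (-1.35), and the copper transporter relative SLC31A2 1614, 616 and 709.6 (-1.39). The leucine transporter SLC7A5 read 22681, 19708 and 18899 (-0.20). Mitochondrial carriers had a median of 0.28 over 24 genes with no 2-fold member. Among ion channels and gap junctions GJB6, connexin 30, was at least 2.07-fold higher and GJA1, connexin 43, read 872, 1662 and 1086 (0.93), while KCNMA1, a potassium channel, read 629, 295 and 281 (-1.09).

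Secreted peptides went in both directions. VGF, a granin-like neuropeptide precursor, read 435, 1062 and 539.7 (1.29). IGFBP7, which binds insulin-like growth factors, read 5411, 1125 and 3469.6 (-2.27), IGFBP6 8528, 2668 and 2118 (-1.68) and the vasodilator adrenomedullin, ADM, 2533, 559.9 and 2876 (-2.18). On the PI3K array ADM was above the vector value and IGFBP6 below it. In the angiogenic and hypoxia list ADM and LOX were the 2-fold lower members, and VEGFA was at 0.48. Semaphorins, plexins, ephrins and EPH receptors had a median of -0.40 over 19 genes with no 2-fold member, EPHA2 (-0.85) and PLXNB1 (-0.85) being lowest. Lysosomal genes had a median of -0.29 over 37 genes. CTSD, the main aspartic protease there, read 2474, 1099 and 2001 (-1.17), and the cholesterol exporter NPC1 1281, 2485 and 1372 (0.96). Of 10 imprinted genes H19, a noncoding RNA, was at least 3.95-fold lower, and SNRPN read 2131, 1340.2 and 311 (-0.67), lowest on the PI3K array.

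Zinc finger genes of the ZNF family, most of which encode DNA-binding repressors, were lower on chromosome 19 and near 0 elsewhere. Over 210 measured genes the median was -0.23. At least 2-fold lower were 12 (5.71%, or 7 genes with bounds), near the 4.77% of all genes. The 94 on chromosome 19, where the family lies in clusters, had a median of -0.40, 85 below 0 and 11 at least 2-fold lower. The 116 elsewhere had a median of -0.03, 65 below 0 and 1 at least 2-fold lower. On chromosome 19, 44 of the 94 were below detection on the MYC-labelled array, and 6 of the 11 stayed 2-fold lower with bounds. For 18 of these 44 the bound was under 1-fold, so they give no direction, though they enter the median and counts over all 94. Elsewhere the same held for 10 of the 19 detected on 1 array. Among genes detected on both arrays the medians were -0.31 (50 genes, 6 above 0) and -0.02 (97 genes, 46 above 0). On the PI3K array the medians over all 94 and 116 were -0.19 and -0.06. The 2 sides of chromosome 19 differed when all genes were counted, ZNF genes included. The 358 measured genes from MAP1S to MZF1, of which 74 are ZNF, had a median of -0.17 with 124 above 0. The 201 from PLPP2 to RFX1, of which 20 are ZNF, had a median of 0.18 with 132 above 0. Whether ZNF genes differed from their other neighbours was not tested.

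Neighbouring genes were then looked at in order along the chromosomes (RefSeq GRCh38.p14 order, running median of 31 measured genes). The runs below were chosen, and their ends set, after the values were seen. Their medians and counts beside the shares of all genes are thus descriptions and no support for a run. Over 7454 windows of all chromosomes the 5th and 95th percentiles of the running median were -0.18 and 0.27. The highest window of any chromosome ran from TECR to GTPBP3 on chromosome 19, with a median of 0.73 and 25 of 31 genes above 0. For the same genes the PI3K median was -0.12. The lowest, from NLRP8 to ZNF446 near the other end of chromosome 19, had a median of -0.75 with 1 of 31 genes above 0, and a PI3K median of -0.42.

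In the run of 43 genes from IL27RA to COLGALT1 the median was 0.65, 34 were above 0 and 9 were at least 2-fold higher, against the 2.31% background. The 2 genes at least 2-fold lower, HSH2D and BST2, are both in the interferon list. The 9 were IL27RA, ADGRL1, HACL2, NOTCH3, TMEM38A, OCEL1, NR2F6, GTPBP3 and COLGALT1. ADGRL1, an adhesion receptor, read 428, 1165 and 185 (1.44). OCEL1 read 811, 2138 and 825 (1.40), and GTPBP3, a mitochondrial tRNA modifier, 2289.8, 4796 and 1929 (1.07). COLGALT1, a collagen galactosyltransferase, read 2683, 6035 and 3635 (1.17). On the PI3K array 20 of the 43 were above 0 and the run's median was -0.12, so the run was high on the MYC-labelled array alone.

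The 23 genes from ZNF264 to ZNF274 had a median of -0.81, none above 0, and 9 at least 2-fold lower, 6 with bounds, against a background of 4.77%. Both ends were set on 2-fold lower genes, and the next gene, ZNF584 (0.01), was left out. That none is above 0 thus follows in part from the choice. On the MYC-labelled array 13 of them were below detection, and for 6 of these the vector signal was under the floor of the MYC-labelled array, so they give no direction. The 10 detected on both arrays had a median of -0.96. Of the 23, 20 are ZNF genes, and the PI3K median was -0.53. ZNF256 was at least 2.86-fold lower and ZNF274 read 1574, 652 and 861 (-1.27, with 0.09 on another probe). ZNF773 read 1061, 462 and 679.7 (-1.20) and ZNF17 845, 371 and 497 (-1.19). ZNF genes resemble each other in sequence, and their probes may share targets.

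Chromosome 18 had the highest median of the 23 chromosomes, 0.30 over 106 genes with 76.4% above 0, and a PI3K median of -0.01. The 43 genes from USP14 to OSBPL1A had a median of 0.51 with 38 above 0 and 7 at least 2-fold higher, against the 2.31% background. The 63 that follow had a median of 0.18. The run of 43 was also chosen after its values were seen and was ended on OSBPL1A (1.54). Its contrasts with the 63 and with the background thus follow in part from the choice. TTC39C read 248, 966 and 295, EMILIN2, a matrix glycoprotein, 253, 849.5 and 349 and OSBPL1A, an oxysterol-binding protein relative, 592, 1723 and 539. YES1, a kinase of the SRC family, read 2439, 4982 and 3417 and ANKRD29 302, 907 and 218. All 5 were highest on the MYC-labelled array. Only RNA was measured, so gene copy number in these cells was not tested.

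**Figure D5:**
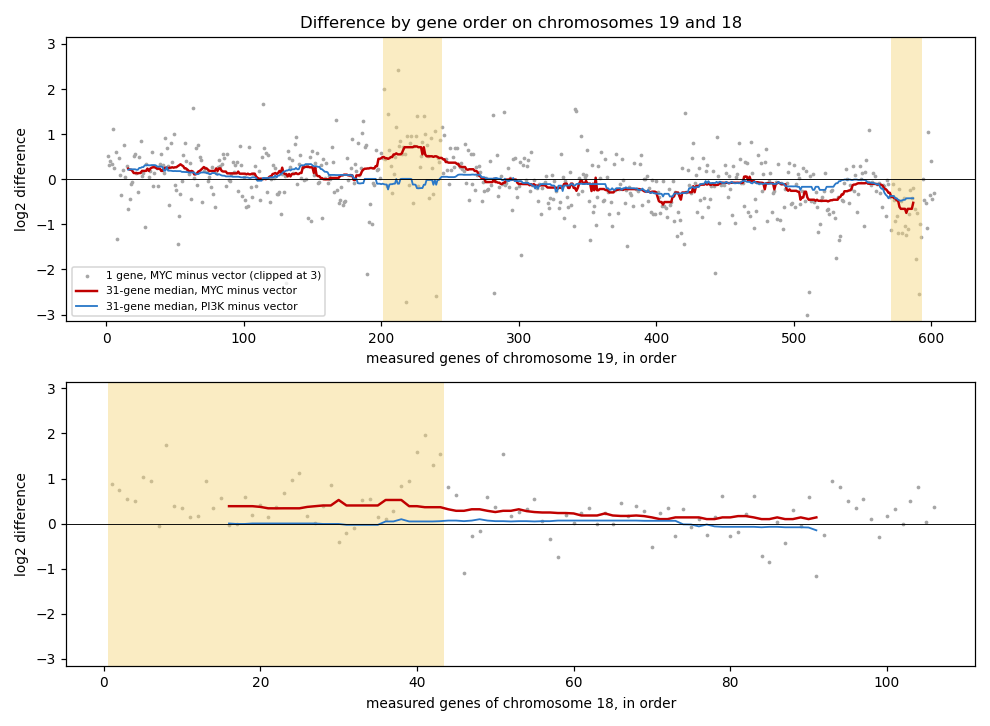
Log2 differences of measured genes in their order along chromosome 19 (upper) and chromosome 18 (lower), points for single genes (MYC-labelled minus vector, drawn at 3 or -3 where beyond), red and blue lines for the 31-gene running medians of the MYC-labelled and PI3K arrays over the same vector array. Shaded are the runs IL27RA to COLGALT1 (median 0.65), ZNF264 to ZNF274 (-0.81) and USP14 to OSBPL1A (0.51).

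The brightest genes of the vector array differed little. EEF1A1 read 35181, 42430.1 and 37829, TPT1 33416, 40119 and 37369 and PFN1 28666, 29747 and 33002. S100A10 read 29773, 22317 and 26194 (-0.42). LAIR1, known as a leukocyte receptor, was among these 5 with 30383, 32266 and 31351 from 1 probe. The 23 housekeeping genes had a median of 0.00 and no 2-fold member, with ACTB at 0.49, GAPDH at 0.44 and B2M, itself interferon-responsive, at -0.64. Over the 815 dimmest genes the median was -0.03 with 31 at least 2-fold higher and 82 lower. Over the 815 brightest it was 0.13, with 11 and 21.

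Most markers of other cell types were below detection. Of 20 leukocyte markers 2 were measured, CD68 (1278, 1275 and 1506) and CD14, which was below detection on the MYC-labelled array (at least 1.08-fold lower). No endothelial marker of 12 was detected. Of 15 fibroblast markers 2 were, ACTA2 and COL5A1, on opposite sides of 0. COL5A1, with 2272 on the vector array, and CD68 were well above the floor. Of 12 neuroendocrine markers UCHL1 was the 1 measured, below detection on the vector array and at least 2.16-fold higher. The epithelial label was borne by KRT5, KRT14 and CDH1, all detected on both arrays.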

How the data were processed

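Signals (intensity) and detection values (fractions, 1 minus the detection p) of the vector and MYC-labelled arrays were deposited by the authors as scanner output, not normalized. Per the submitters' processing notes GenomeStudio was used, with no version stated in them. The authors also deposited a log2 table of the 3 arrays, whose scale the file does not state; differences in it equal log2 signal ratios scaled to the 75th percentile, while the centring of single columns stays unknown (column medians -0.16, 0.07 and 0.04 for vector, MYC-labelled and PI3K). A further 2 per-sample columns, whose header names no sample, were left out. Of 24526 probes, 21834 have 1 symbol per the platform annotation, and the other 2692, with none or more than 1, were left unnamed. Of the probes, 21813 were matched to RefSeq.

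The members and 75 gene lists were chosen with earlier results of these data known. A gene is read by its brightest probe with a detection value above 0.99 on at least 1 of the 2 arrays, and 2-fold is the threshold. Named are the 15 highest and 15 lowest genes detected on both arrays, the 8 highest fold bounds in each direction and 5 brightest genes. These leave out the interferon and ribosome lists. In every remaining list the 4 highest, 4 lowest and brightest are named too. Such list members can also be in the interferon list, as TYMP and TNFSF10 are. Named beyond this rule, after their values were seen, were EEF2, PFAS, PAICS, TOMM20, HYOU1, PFKM, ATF4, MAX, TOP2A, ASPM, CAV1, CAV2, SFN, IRX4, CLDN7, SNAI2, ITGA3, PLOD2, TNC, NOTCH1, HES1, TGFBR2, EGR1, DUSP6, TSC22D3, NR3C1, IRS2, AKT1, CXCL2, IL6, NFKB2, PTGS2, IL32, GDF15, MT1G, PRDX1, PRDX3, PRDX4, SLC2A9 and the genes of the runs on chromosomes 18 and 19. Paralogs such as PRSS2 and PRSS3, or SAA1 and SAA2, may share signal. With 1 array a group there are no tests, and the number of arrays limits the precision. Alternatives changed the scaling, background correction (limma normexp with quantile, and neqc), an offset of 50, the detection filter, the probe rule and the treatment of undetected genes. The code that gives 1 difference per gene and the between-probe SD was tested on simulated data, and the list code was not.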

Additional observations from a re-analysis of the deposited data

How the results depend on the processing

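Counts of genes at least 2-fold higher and lower were 188 and 389 as reported. Matching the arrays on their medians gave 105 and 567, which lowers the share of higher genes among both from 32.6% to 15.6%, because every difference falls by 0.21. The limma neqc method gave 310 and 594, and requiring detection on both arrays left 131 and 194, fewer genes being counted. Over the other 6 alternatives the counts ran from 143 to 204 and from 291 to 436. Of 171 named genes at least 2-fold apart, none changed sign under the 5 alternatives run on them (2-fold kept by 154 to 171). Median scaling changed the sign of 16 of 71 list medians, all of them smaller than the between-probe SD as reported. Without a detection filter, where undetected genes enter and the median of all genes moves to 0.23, 22 of 71 lists changed sign, 8 of them larger than that SD as reported: ZNF genes 0.0071, trypsin-like proteases 0.10, kallikreins 0.36, keratins 0.24, collagens 0.22, luminal markers 0.32, FGF genes 0.28, semaphorins and EPH receptors 0.25. The runs of neighbours, whose alternatives were chosen after seeing the data, kept their sign: 0.44 to 0.72 for IL27RA to COLGALT1, -1.24 to -0.47 for ZNF264 to ZNF274, and 0.29 to 0.52 for USP14 to OSBPL1A. No paired analysis was possible because each group is 1 array and the groups share only 1 replicate number. Signal near background limits the dim genes, for which only bounds are given.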
